A study of Mus musculus with 6 samples.

Results

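The interleukin-1 (IL-1) family of cytokines, receptors and inhibitors was followed through 10 genes, Il1a, Il1b, Il18, Il1rn, Il18bp, Il1r1, Il1r2, Il1rap, Il1rl1 and Il1rl2. They were chosen by symbol from the 16266 genes of the expression tables, with earlier results of these data known. The cells were mouse bone marrow-derived macrophages (BMDMs), macrophages grown out of marrow in culture, and RNA was measured by strand-specific sequencing of total RNA. Knockout cells (KO) lacked Capns1, the small regulatory subunit shared by the conventional calpains, which are calcium-dependent proteases, and were set against wild-type cells (WT). Each group had 3 libraries, and both groups had been exposed to lipopolysaccharide (LPS, the bacterial wall component sensed by TLR4) for 24 h, so every value here is a level in LPS-activated cells and no unstimulated cells stand beside them. The series title describes the deletion as specific to myeloid cells, the genotype entries of the 3 KO samples read CAPNS1-KO, CAPNS2-KO and CAPNS3-KO, and the sources used here name no Cre driver, strain, age or LPS dose. The labels do not say whether the 3 samples of a group came from separate animals or cultures, so the p-values cover only the spread among these libraries and that spread could be technical.

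IL-1 alpha and IL-1 beta are agonists of the same receptor, which is built from the binding chain IL1R1 and the accessory chain IL1RAP and signals through MyD88 to NF-kB and MAP kinases. The IL-1 receptor antagonist, encoded by Il1rn, occupies IL1R1 without signalling, and IL1R2 is a decoy that binds IL-1 but has no signalling domain. IL-18 is held in check by the secreted IL-18 binding protein, while Il1rl1 (also called ST2) and Il1rl2 encode the binding chains for IL-33 and the IL-36 cytokines. IL-1 beta and IL-18 are made as precursors and cut by caspase-1, and the IL-1 alpha precursor is a known calpain substrate. Those are steps on the protein, and RNA counts do not measure them.

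Capns1 checked the labels: it had 298 to 370 counts in the KO libraries and 17055 to 21331 in the WT libraries, so each library matched its group. Library totals ran from 32631163 to 40913819 counts, and the upper limit behind a count of 0, taken as 3 counts, came to 0.0733 to 0.0919 CPM (counts scaled to a common library size). On the second principal component of log2 CPM, which held 20.9% of the variance, KO replicate 2 (19.9) and WT replicate 3 (-16.5) lay away from the remaining libraries of their group. Of 8 macrophage markers 0 passed an adjusted p under 0.05 in edgeR and 1, Csf1r, had an unadjusted p under 0.05 (called lower with DESeq2, without a filter, with the replicate block and without WT replicate 2); Fcgr1 was called lower without KO replicate 2, and Fcgr1 and Lyz2 with KO replicate 2 and WT replicate 3 left out. Their summed level was 33131 to 38188 CPM in KO and 34619 to 41898 CPM in WT. Over all genes tested 14.6% passed the same threshold in edgeR.

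In Capns1-deficient macrophages the agonist Il1a and the receptor genes Il1r2, Il1rl1 and Il1rl2 were higher than in wild type, and both soluble inhibitors, Il1rn and Il18bp, were lower. Il1b, Il18 and the accessory chain Il1rap did not pass the test. A gene was called where its adjusted p was under 0.05 in edgeR's quasi-likelihood test, with Benjamini-Hochberg adjustment over all 12219 genes tested. Il1r1, the remaining receptor gene, entered the test through its KO libraries alone, since 1 of 3 WT libraries reached the 0.276 CPM of the filter on low counts. It is described apart and left out of the counts that follow. Of the other 9 genes 6 were called, 4 higher and 2 lower, and the shares over all genes tested were 14.6% called, 8.44% higher and 6.21% lower. In 6 of the 9 the KO and WT libraries did not overlap in CPM, against 33.6% of all genes tested. Since the genes were chosen with earlier results known, these counts describe the list and are no test of enrichment. The median log2 fold change was -0.032 over these 9 genes, 0.51 with Il1r1 added and -0.011 over all genes tested, so the middle of the list turns on a single gene. Without KO replicate 1, KO replicate 3 or WT replicate 1, 4 of the 9 were called.

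**Figure D1:**
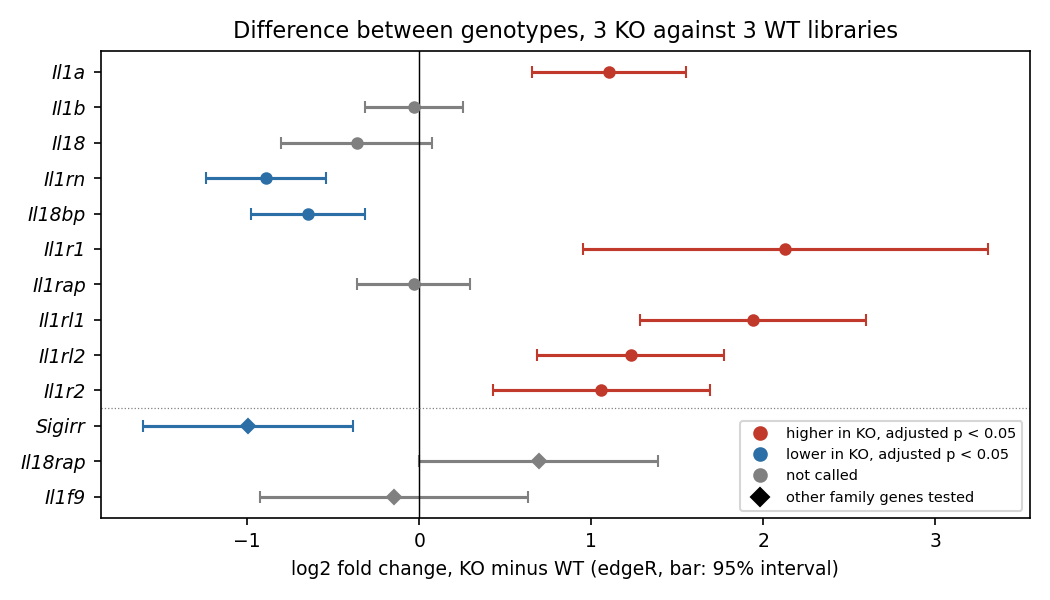
Log2 fold change of each IL-1 family gene, KO minus WT, with its 95% confidence interval from edgeR, in order of role. Il1a and the receptors Il1r2, Il1rl1 and Il1rl2 lie to the right of 0, as does Il1r1, which entered the test through its KO libraries; Il1rn and Il18bp lie to the left, and the intervals of Il1b, Il18 and Il1rap include 0; diamonds show the other family genes tested, Sigirr, Il18rap and Il1f9.

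The agonists were measured at levels far apart. Compared per length, as fragments per kilobase of transcript and per unit of library size (FPKM, in the deposited scale), Il1b was the most abundant of the 10 genes in both groups, at 144.7 ± 20.4 FPKM in WT and 143.4 ± 17.4 FPKM in KO (mean ± SD, n = 3 each). In WT the order of FPKM levels went on with Il18bp and Il1rn, whose ranges overlapped, and then with Il18, Il1a, Il1r2, Il1rap, Il1rl2, Il1rl1 and Il1r1, whose ranges were each separate from the next. In KO, Il1a stood second at 19.7 ± 4.47 FPKM (SD, n = 3), level with Il18bp within the spread, and Il1rn and Il18 overlapped after it. Il1rl2, Il1rap and Il1rl1, in that order, overlapped with their neighbours in KO. Il1r1 was lowest in both groups, at 0.203 ± 0.0431 FPKM in KO and 0.0448 ± 0.0399 FPKM in WT (SD, n = 3 each). The FPKM of Il18bp rests on a deposited length of 4609 bases, longer than the gene's 3159 bases in RefSeq, so its place in the order depends on that length.

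**Figure D2:**
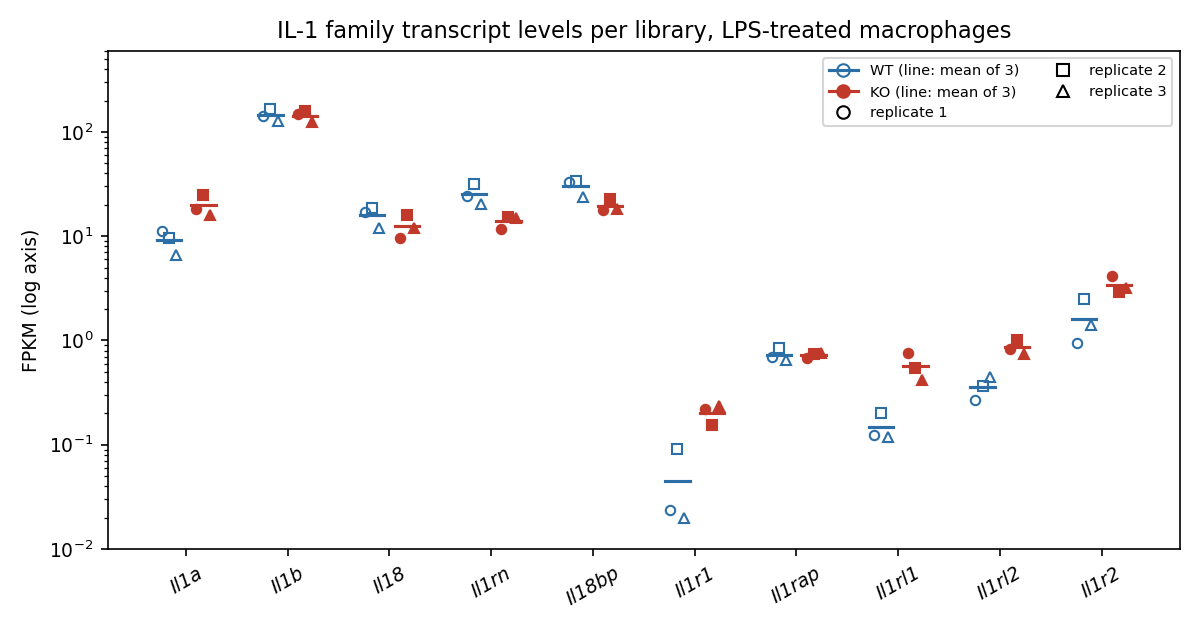
FPKM of the 10 genes in each of the 6 libraries on a log axis, KO and WT side by side, with the group mean as a line and a marker shape for each replicate number. Il1b lies at 124 to 167 FPKM in both groups, and Il1r1 is lowest in both.

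Il1a encodes IL-1 alpha, an agonist that is active as a precursor and is known as an alarm signal of damaged cells. Its level was 18.4, 24.7 and 16.1 FPKM in KO replicates 1 to 3 and 11.2, 9.52 and 6.59 FPKM in WT replicates 1 to 3. Every KO library was above every WT library. The rise was 2.15-fold, a log2 fold change of 1.10 ± 0.20 (SE; edgeR adjusted p = 0.00402). In bulk RNA, a change in how many cells of a type are present cannot be told apart from a change in RNA per cell, and this holds for each gene described here.

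Il1b encodes IL-1 beta, the main secreted agonist of activated macrophages. It stood at 199.8, 214.9 and 168.6 CPM in KO and at 191.4, 226.0 and 171.2 CPM in WT. The groups overlapped almost fully. The log2 fold change was -0.032 with a 95% confidence interval of -0.32 to 0.25 (edgeR adjusted p = 0.911), which corresponds to 0.803 to 1.19 times the WT level. Its sign turned without KO replicate 3 (0.081) or WT replicate 2 (0.090).

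Il1a and Il1b are neighbours on chromosome 2 (GRCm38), at 129299609 to 129310186 and 129364569 to 129371164, separated by 54.4 kb. Both lie on the minus strand, and 250 bases before an annotated start of each, from RefSeq (GRCm38.p6), are shown because the pair differed in response while lying side by side. The start used is base 129309972 for Il1a and base 129371139 for Il1b, which lie 214 and 25 bases inside the outer gene bounds just given, so that part of each window falls within those bounds. The antagonist Il1rn lies on the plus strand of the same chromosome, 104.9 Mb away, at 24336860 to 24351491. Its window is the 1 of 3 RefSeq windows for the gene that lies just before that first base. Capitals mark matches to the TATA box (TATAAA), AP-1 (TGANTCA), PU.1 (GAGGAA) and C/EBP (TTNNGNAA) motifs, searched on both strands.
Il1a, chr2:129309973-129310222, minus strand: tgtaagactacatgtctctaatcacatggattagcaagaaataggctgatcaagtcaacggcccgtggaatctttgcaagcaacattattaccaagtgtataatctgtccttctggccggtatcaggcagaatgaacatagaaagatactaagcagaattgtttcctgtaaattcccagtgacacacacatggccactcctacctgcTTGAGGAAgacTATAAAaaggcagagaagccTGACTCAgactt
Il1b, chr2:129371140-129371389, minus strand: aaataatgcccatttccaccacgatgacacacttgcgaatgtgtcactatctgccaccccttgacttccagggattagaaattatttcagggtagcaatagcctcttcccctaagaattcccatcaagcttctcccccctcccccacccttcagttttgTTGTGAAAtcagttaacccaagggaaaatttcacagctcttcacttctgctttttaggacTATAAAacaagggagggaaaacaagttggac
Il1rn, chr2:24336610-24336859, plus strand: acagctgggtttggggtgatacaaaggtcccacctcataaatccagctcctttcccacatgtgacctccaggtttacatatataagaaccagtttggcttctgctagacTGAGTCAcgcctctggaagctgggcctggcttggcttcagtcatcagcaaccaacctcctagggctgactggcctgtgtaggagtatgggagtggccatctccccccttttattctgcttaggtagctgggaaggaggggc
The Il1a window held a TATA box from -32 to -27, an AP-1 match from -12 to -6 and a C/EBP match from -43 to -36 with a PU.1 match inside it, from -41 to -36, positions being counted back from the start used. The Il1b window held a TATA box from -31 to -26 and a C/EBP match from -91 to -84. The Il1rn window held an AP-1 match from -141 to -135. The remaining RefSeq windows of Il1rn, not shown, belong to starts 8431 and 8511 bases inside the gene bounds. They held C/EBP matches (from -81 in the first, and from -161, -65 and -64 in the second) and no AP-1 match. Which start these cells used was not measured. Neither the gamma-activated site (TTCNNNGAA) nor the NF-kB motif had a match in these windows. Of 32851 RefSeq windows of this length, 12.4% held the TATA box, 6.75% AP-1, 23.3% PU.1, 36.8% C/EBP, 7.02% the gamma-activated site and 7.25% NF-kB. A match describes the letters and is not a measured site, and no protein binding was measured in these cells.

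Il18 encodes the precursor of IL-18, a cytokine that drives interferon gamma production. Its level was 15.8, 25.8 and 19.4 CPM in KO and 27.9, 30.4 and 19.4 CPM in WT, so KO replicate 2 and WT replicate 3 reached into the range of the other group. The log2 fold change was -0.36, with a 95% confidence interval of -0.80 to 0.076 (edgeR adjusted p = 0.269). Those are the 2 libraries that stood apart over all genes. Without KO replicate 2 the log2 fold change was -0.59 (edgeR adjusted p = 0.0480), and with both left out it was -0.77 (edgeR adjusted p = 4.13e-04).

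Both soluble inhibitors fell. Il1rn, the receptor antagonist, stood at 33.0, 42.5 and 41.7 CPM in KO and at 68.0, 89.1 and 57.5 CPM in WT. No KO library reached the lowest WT library. Il1rn fell by 0.89 on the log2 scale (SE 0.16, edgeR adjusted p = 0.00335), or 1.86-fold lower in KO.

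Il18bp, which encodes the secreted protein that captures IL-18, stood at 82.9, 103.9 and 83.8 CPM in KO and at 153.9, 156.0 and 108.4 CPM in WT. The groups did not overlap, although WT replicate 3 lay close to KO replicate 2. Il18bp fell by 0.65 on the log2 scale (SE 0.15, edgeR adjusted p = 0.0150), or 1.57-fold lower. The call was lost without KO replicate 1, KO replicate 3, WT replicate 1 or WT replicate 2 (log2 fold change -0.58 to -0.55, adjusted p of 0.0675 to 0.0824).

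The balance of inhibitor to agonist within each library was computed from FPKM, where scaling cancels. In all, 6 such ratios were formed, of which 2 have Il1r1 as denominator and are given with that gene. An exact two-sided permutation test of 3 against 3 libraries cannot give a p below 0.1, which is 0.12 after Benjamini-Hochberg adjustment over the 6. The ratio of Il1rn to Il1a was 0.640, 0.612 and 0.924 in KO and 2.17, 3.33 and 3.11 in WT. By FPKM the antagonist transcript exceeded that of Il1a in every wild-type library and lay under it in every knockout library. For KO replicate 3 this rests on the deposited lengths, 2805 bases for Il1rn and 1974 for Il1a. In CPM that library had Il1rn at 41.7 and Il1a at 31.8. The ratio of Il1rn to Il1a was 3.96-fold lower in KO (exact permutation p = 0.1, adjusted 0.12). Since Il1rn was lower and Il1a higher in every KO library, the separation of this ratio was fixed beforehand. It restates the levels of both genes and adds no support to them.

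The ratio of Il1rn to Il1b was 0.0798, 0.0955 and 0.120 in KO and 0.172, 0.190 and 0.162 in WT, again with no overlap and 1.80-fold lower in KO (exact permutation p = 0.1, adjusted 0.12). Between the agonists, the ratio of Il1a to Il1b was 0.125, 0.156 and 0.129 in KO and 0.0792, 0.0571 and 0.0522 in WT, which is 2.20-fold higher in KO (exact permutation p = 0.1, adjusted 0.12). Il1b transcripts thus outnumbered those of Il1a in all 6 libraries, by a smaller factor in the KO libraries. The ratio of Il18bp to Il18 was 1.85, 1.42 and 1.53 in KO and 1.95, 1.81 and 1.98 in WT. For that pair KO replicate 1 overlapped the WT range (exact permutation p = 0.2, adjusted 0.2).

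**Figure D3:**
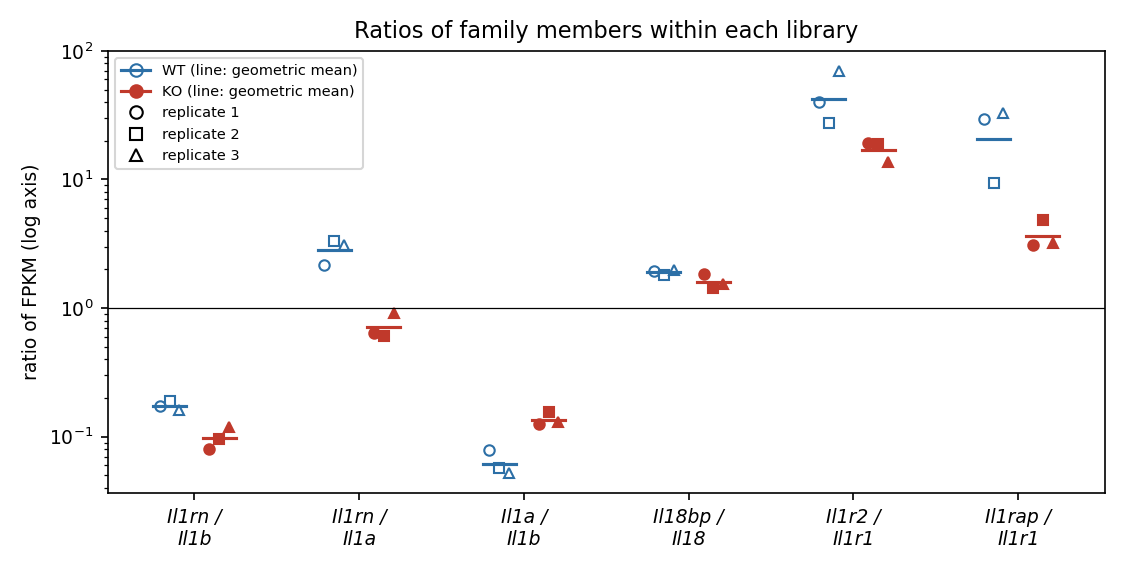
The 6 ratios of FPKM between IL-1 family genes in each library, on a log axis, KO and WT side by side, with the geometric mean of each group as a line. The ratio of Il1rn to Il1a is under 1 in all 3 KO libraries and over 2 in all 3 WT libraries, and Il18bp to Il18 is the ratio whose groups overlap.

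Il1r1, the signalling receptor of IL-1, was measured at the edge of detection, with 47, 35 and 47 counts in KO and 5, 22 and 5 counts in WT. WT replicate 2 held more counts than both other WT libraries together and still lay under every KO library. Because the gene was tested through the group where it is high, its fitted values are a description: the level was 4.37 times that of WT in edgeR, a log2 difference of 2.13 ± 0.54 (SE), and 3.17 without WT replicate 2. With no filter on low counts, where entry to the test does not depend on a group, the log2 fold change was 2.13 (edgeR adjusted p = 0.0103). With the filter the adjusted p was 0.0212 in edgeR, and it was 0.0649 to 0.0820 without KO replicate 1, KO replicate 3 or WT replicate 1.

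Il1r2, the decoy receptor, was 11.1, 7.74 and 8.61 CPM in KO and 2.51, 6.69 and 3.74 CPM in WT. All KO libraries were above all WT libraries, with WT replicate 2 nearest to them. The rise was 2.08-fold, or 1.06 ± 0.29 on the log2 scale (SE, edgeR adjusted p = 0.0298). It lost its call without KO replicate 1, KO replicate 3 or WT replicate 1 (log2 fold change 0.92, 1.12 and 0.79, adjusted p of 0.0712 to 0.102).

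Il1rl1, the receptor chain for IL-33, was 5.62, 4.08 and 3.13 CPM in KO and 0.922, 1.49 and 0.880 CPM in WT. Even the lowest KO library was above the highest WT library, and the rise was 3.83-fold (log2 fold change 1.94 ± 0.30 SE, edgeR adjusted p = 0.00136). Its ligand gene Il33 had 4, 0 and 2 counts in KO and 5, 3 and 0 in WT, below the filter. Il1rl2, the receptor chain for IL-36, was 4.12, 5.08 and 3.74 CPM in KO and 1.35, 1.84 and 2.22 CPM in WT. These groups were also apart, with a rise of 2.34-fold (log2 fold change 1.23 ± 0.25 SE, edgeR adjusted p = 0.00662).

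Il1rap encodes the accessory chain that the receptors for IL-1, IL-33 and IL-36 share. It was 7.49, 8.17 and 8.30 CPM in KO and 7.64, 9.31 and 7.21 CPM in WT, and the groups overlapped. The log2 fold change was -0.033, with an interval of -0.36 to 0.30 (edgeR adjusted p = 0.921), and its sign turned without KO replicate 1 (0.033) or WT replicate 2 (0.093). The ratio of Il1rap to Il1r1 in FPKM was 3.12, 4.83 and 3.20 in KO and 29.4, 9.32 and 32.8 in WT. Accessory-chain transcripts exceeded those of Il1r1 in every library. The decoy also stayed in excess: the ratio of Il1r2 to Il1r1 was 19.1, 18.8 and 13.7 in KO and 39.8, 27.5 and 69.9 in WT. Both ratios restate the levels of Il1r1, rest on WT denominators of 5 to 22 counts, and are given as descriptions.

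Some markers of fibroblasts and marrow stroma were also higher in KO. Of 9 such genes tested, 5 (55.6%) were called higher in KO in edgeR (Dcn, Pdgfra, Col1a2, Col1a1 and Cxcl12), beside 8.44% of all genes tested. At an unadjusted p under 0.05 in edgeR 6 were higher, and the 18 alternatives called 3 to 5 higher. In edgeR 0 were lower at an adjusted or an unadjusted p under 0.05, and 0 under each of the 18 alternatives. The summed level of the list was 342 to 416 CPM in KO and 161 to 195 CPM in WT. Pdgfra, a receptor of mesenchymal cells, had a log2 fold change of 1.91, and Dcn, which encodes the matrix protein decorin, 1.78 (edgeR adjusted p = 1.36e-04 and 5.63e-06). The groups overlapped in CPM for Pdgfrb, Lum, Col3a1 and Lepr, which were not called. Their log2 fold changes were 0.95, 0.38, 0.27 and -0.62 (edgeR adjusted p = 0.117, 0.446, 0.306 and 0.603). Lepr, the gene that went the other way, had 2 to 18 counts in each library. Thy1, from the same list, had 2 to 12 counts in each library and was below the filter. Stromal cells also express Il1r1 and Il1rl1, and the part of these cells in the receptor results was not tested.

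Mast cells and basophils, which carry Il1rl1 in many tissues, had 9 markers in the table. Of these 4 were tested, and they did not move together. Hdc, the histamine-forming enzyme, was lower in KO (3.21, 3.09 and 4.81 CPM against 5.85, 7.12 and 5.62 CPM). The log2 fold change of Hdc was -0.77 (edgeR adjusted p = 0.0272). This call was lost without KO replicate 1, KO replicate 2, WT replicate 1 or WT replicate 2. Mcpt8, a basophil protease, went the other way, at 1.99, 1.42 and 0.735 CPM in KO and 0.548, 0.278 and 0.684 CPM in WT, with every KO library above every WT library. Its log2 fold change was 1.43 (edgeR adjusted p = 0.0636), and it was called with DESeq2, with no filter, with limma on log2(FPKM + 0.1), without KO replicate 3 or WT replicate 3, and with KO replicate 2 and WT replicate 3 left out. The summed level of the list, most of it Hdc, was 6.37 to 7.58 CPM in KO and 8.24 to 9.41 CPM in WT, and the protease genes Cpa3, Tpsb2, Cma1 and Mcpt4 had 0 to 15 counts in each library. Neutrophils are known for Il1r2. Of 10 neutrophil markers, S100a8 and S100a9 (20.0%) were higher and Csf3r and Mpo (20.0%) lower in KO, beside 8.44% and 6.21% of all genes tested. The summed level of the neutrophil list was 1076 to 1343 CPM in KO and 1103 to 1315 CPM in WT. Among dendritic cell markers Itgax, which macrophages also express, was called higher, at 24.5 to 31.5 CPM in KO and 10.7 to 16.5 CPM in WT, and it made up nearly all of the list's sum. Zbtb46, the other gene tested, did not pass. The remaining 6 were below the filter, with Xcr1 at 0 to 1 counts, Siglech at 0 to 1 counts in KO and 1 to 10 in WT, Flt3 at 0 to 5 and 1 to 8, and Ccr7 at 3 to 11 and 9 to 16. The part of these cell types in the results was not tested.

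The 4 receptor genes that were higher in KO, Il1r1 included, lie next to each other on chromosome 1 (GRCm38). They run from Il1r2 at 40084692 to 40125230, through Il1r1 at 40222480 to 40316201 and Il1rl2 at 40324589 to 40367555, to Il1rl1 at 40404864 to 40465418, within 380.7 kb. Il18r1, the binding chain for IL-18, begins 134 bases after Il1rl1 and had 0 to 4 counts in each library, below the filter. Il18rap, its accessory chain, had a log2 fold change of 0.69 (edgeR adjusted p = 0.177). From Map4k4, on one side, to Mfsd9, on the other, RefSeq lists 10 protein-coding genes, of which 9 were tested. Il1r2, Il1rl2 and Il1rl1 were called higher, beside 8.44% of all genes tested. In edgeR 0 were called lower, beside 6.21% of all genes tested, so 0 of 9 lies near that share. Mfsd9 had a log2 fold change below 0 with an unadjusted p under 0.05, and no alternative called 1 lower.

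Slc9a2, a sodium-proton exchanger gene in that stretch, was picked out once its values were known. Its counts were 36, 28 and 52 in KO and 4, 8 and 16 in WT, so that, like Il1r1, it reached the filter CPM in 1 of 3 WT libraries and is a description here. Its log2 difference was 2.18, and 2.19 with no filter (edgeR adjusted p = 0.0149 and 0.00832). The other tested neighbours had log2 fold changes of 0.34 for Map4k4, -0.55 for Slc9a4 and -0.48 for Mfsd9, and none of these passed in edgeR (adjusted p = 0.0783, 0.572 and 0.0815). Map4k4 was called with DESeq2, with a replicate block, without KO replicate 2 or WT replicate 3, and with both of these left out (adjusted p from 7.57e-04 to 0.0455, log2 fold change 0.34 to 0.50).

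**Figure D4:**
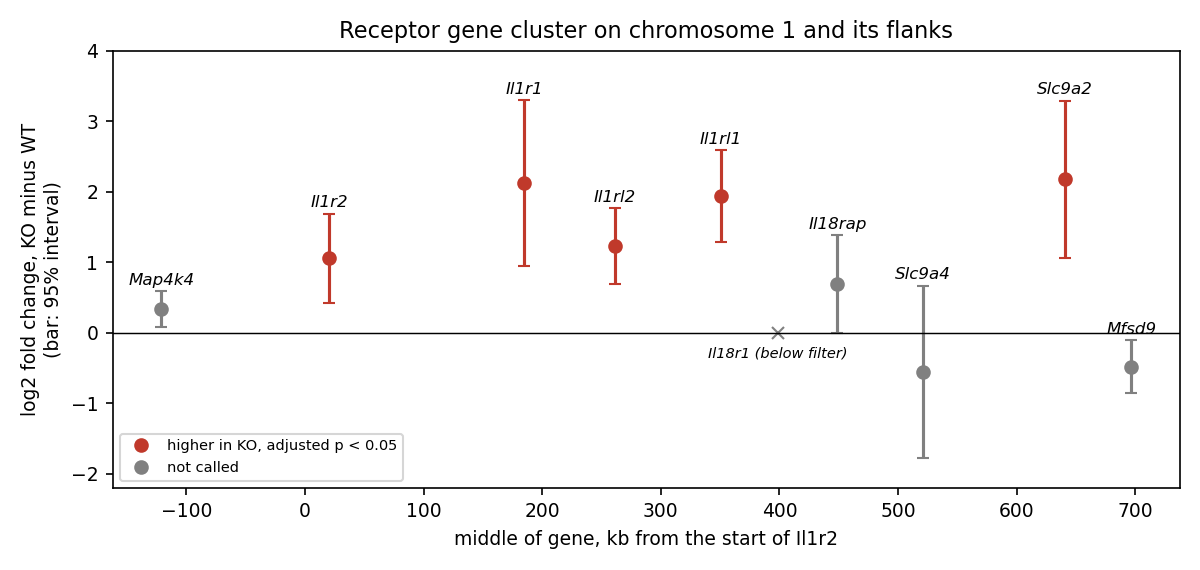
Log2 fold change, KO minus WT, with its 95% interval for the genes of the receptor cluster, set by the distance of each gene's middle from the start of Il1r2 in kb. The 4 IL-1 family receptor genes and Slc9a2 lie above 0, of which Il1r1 and Slc9a2 entered the test through their KO libraries; the interval of Slc9a4 spans 0, and those of Map4k4, Il18rap and Mfsd9 stop close to it without passing the adjusted test; the cross marks Il18r1, which was below the filter and has no value.

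Genes next to the other called members gave smaller differences. Beside Il1a, Ckap2l (a spindle protein gene) had a log2 fold change of -0.21 (edgeR adjusted p = 0.421). Beside Il1rn, Psd4 had -0.28 (edgeR adjusted p = 0.0664), and it was called with DESeq2, with the replicate block and with KO replicate 2 and WT replicate 3 left out. Il18bp lies on chromosome 7 at 102015074 to 102018232, between Numa1 and Rnf121, whose log2 fold changes were -0.27 and 0.012 (edgeR adjusted p = 0.173 and 0.975). Il18 is at 50554700 to 50581841 on chromosome 9, and Il1rap at 26581509 to 26730128 on chromosome 16. RefSeq genes overlap Il1a (the long non-coding RNA Gm14023), Il1b (Il1bos), Il18 (Bco2 and Tex12), Il1r2 (Gm16894), Il1rap (Gm20319) and Il1rl2 (the pseudogene Gm17970). No source used here gives the strand setting of the counting, so the levels of these genes could include reads of their partners. The share of a member's 32-base words also present in transcripts of another gene was at most 1.01%, in Il1rl1.

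Other IL-1 family genes were sparse. Of 11 on the list, 7 were in the table and 3 passed the filter. Sigirr, an orphan receptor known to dampen IL-1 and Toll-like receptor signalling, was 2.38, 1.10 and 1.72 CPM in KO and 3.37, 3.05 and 3.74 CPM in WT. It was lower in all KO libraries, 1.99-fold (SE 0.28 on the log2 scale, edgeR adjusted p = 0.0339). The call was lost without KO replicate 2, KO replicate 3 or any single WT library, and with KO replicate 2 and WT replicate 3 both left out (-0.68, adjusted p = 0.111). Il1f9, which encodes IL-36 gamma, had a log2 fold change of -0.15 (edgeR adjusted p = 0.842). Il1f6 and Il1f5, for IL-36 alpha and the IL-36 receptor antagonist, had 0 to 4 counts in each library. Il36b, Il1f10, Il1rapl1 and Il1rapl2 were not analysed here.

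Downstream of the receptors, 25 genes of signalling to NF-kB and MAP kinases were tested, of which 2 (8.0%) were higher and 2 (8.0%) lower. Over all genes tested the shares were 8.44% and 6.21%, so the list lay near them. Its median log2 fold change was -0.057. Map3k8, the kinase Tpl2 that drives ERK activation, was higher at 0.43, and Irak3, a kinase-dead brake on the pathway, at 0.45 (edgeR adjusted p = 0.0267 and 0.0314). Irak4, the kinase recruited first by MyD88, fell by 0.48, and Traf6, the ubiquitin ligase that follows it, fell by 0.52 (edgeR adjusted p = 0.00904 and 0.0159). With DESeq2, limma-voom, no filter or the replicate block 4 genes were lower; the added genes, named once their values were seen, were Peli2 and Tab2. Irak4 kept its call under each of the 18 alternative settings. The other calls were lost when single libraries were left out: Map3k8 without KO replicate 1, WT replicate 1 or WT replicate 3, Traf6 without KO replicate 1, KO replicate 3 or WT replicate 1, and Irak3 without any of KO replicates 1 and 3 and WT replicates 1 and 2.

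Among 23 genes of cytokine maturation and release, 1 (4.35%) was higher and 5 (21.7%) lower, Capns1 included, with a median log2 fold change of -0.12. Over all genes tested 8.44% were higher and 6.21% lower. With KO replicate 2 and WT replicate 3 left out, 10 genes of the list were lower. In that setting the genes called lower over the whole table also rose, from 759 to 1505. Pycard, the adaptor that joins inflammasome sensors to caspase-1, was higher at 0.61 (edgeR adjusted p = 0.00433). The serine proteases Prtn3, Ctsg and Elane, which neutrophil granules store and which can cut IL-1 family precursors, fell by 0.93, 1.08 and 0.93 (edgeR adjusted p = 0.00326, 0.00376 and 0.00998). Mpo, another granule gene and a marker of neutrophils and their precursors, fell by 0.99 (edgeR adjusted p = 0.00981). The rest of the neutrophil list did not all fall. Camp, Ltf, Mmp8, Retnlg, Ly6g and Cxcr2 did not pass, with log2 fold changes of -0.069, -0.23, 0.19, 0.26, -0.51 and 1.03. Csf3r was called lower, at -0.50, and S100a8 and S100a9 were called higher, at 0.75 and 0.49. The part of neutrophils and their precursors in the protease result was not tested. Nlrp3, the inflammasome sensor, was at -0.31 with an edgeR adjusted p of 0.0498, and it lost its call in 14 of 18 alternative settings (adjusted p up to 0.184), each single library left out among them.

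Of 18 transcription and mRNA decay factors of IL-1 genes, 2 (11.1%) were higher and 3 (16.7%) lower, with a median of -0.035. Over all genes tested 8.44% were higher and 6.21% lower. With KO replicate 2 and WT replicate 3 left out, 4 genes of the list were higher. In that setting the genes called higher over the whole table also rose, from 1031 to 1681. Fosl1, a subunit of AP-1, was at 16.2, 14.6 and 15.7 CPM in KO and 3.23, 3.71 and 3.81 CPM in WT. Its groups were far apart, and the log2 fold change was 2.09 (edgeR adjusted p = 4.35e-06). Zfp36l1, which promotes decay of AU-rich mRNAs, fell by 0.83 (edgeR adjusted p = 0.00855), though 6.42% of its 32-base words occur in another gene, most in its pseudogene, so reads could be split. Zc3h12a, the endonuclease Regnase-1 that targets cytokine mRNAs, was higher at 0.46, and Irf1 and Irf8, interferon regulatory factors, were lower at -0.44 and -0.33 (edgeR adjusted p = 0.0417, 0.0142 and 0.0324). These last 3 calls were lost without KO replicate 1, KO replicate 3, WT replicate 1 or WT replicate 2, and that of Irf8 also without WT replicate 3.

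Of 22 genes that IL-1 induces in many cell types, 19 were tested, while Il6, Csf2 and Ccl20 were below the filter. In edgeR 8 (42.1%) were called higher, beside 8.44% of all genes tested, 11 did not pass, and the median log2 fold change was 0.40. In edgeR 0 were called lower, although 5 had log2 fold changes below 0 (Cxcl2, Mmp3, Mmp13, Nos2 and Vcam1, named once their values were seen). Of these, Mmp13, a collagenase, was at -0.76 with an unadjusted p under 0.05 (edgeR adjusted p = 0.0759), and it was called lower with DESeq2, without WT replicate 3, and with KO replicate 2 and WT replicate 3 left out. LPS induces many of the same genes directly, and all these cells had received it. The neutrophil attractant Cxcl1 was 7.89, 9.73 and 7.57 CPM in KO and 2.97, 3.36 and 1.98 CPM in WT, with the groups apart and a log2 fold change of 1.58 (edgeR adjusted p = 6.09e-04). Ptgs2 and Ptges, the enzymes that make prostaglandin E2 in sequence, rose by 2.01 and 1.02 (edgeR adjusted p = 3.97e-04 and 1.51e-04). Lcn2, an iron-scavenging protein, rose by 1.14 (edgeR adjusted p = 0.00104). Named beyond the rule after their values were seen, Cxcl5, Ccl2, Csf3 and Ccl7 made up the 8, at 1.82, 0.87, 3.07 and 0.69 (edgeR adjusted p = 0.00286, 0.0137, 0.0349 and 0.0392). Csf3 was sparse, at 0.846 CPM in KO and 0.104 CPM in WT on average, and reached the filter CPM in 1 of 3 WT libraries, so it was testable through KO alone and 7 of the 8 called genes do not rest on that. With no filter its adjusted p was 0.0190 in edgeR. It lost its call without KO replicate 1, KO replicate 2, WT replicate 2 or WT replicate 3, and Ccl7 without KO replicate 2, WT replicate 1 or WT replicate 3. Ccl7 was also not called by limma on FPKM with all libraries kept (adjusted p of 0.0510 to 0.0606). With KO replicate 2 and WT replicate 3 both left out, neither Csf3 nor Ccl7 was called, and their log2 fold changes were 2.05 and 0.28. Without WT replicate 1 the value for Csf3 was 5.75. Over the 5 lists 88 genes were tested, of which 14.8% were higher and 12.5% lower, beside 8.44% and 6.21% of all genes tested. The 13 higher genes include Csf3, and the 11 lower genes include Capns1, the deleted gene itself. The lists were chosen with earlier results of these data known, so these shares are a description and no test of the pathway.

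**Figure D5:**
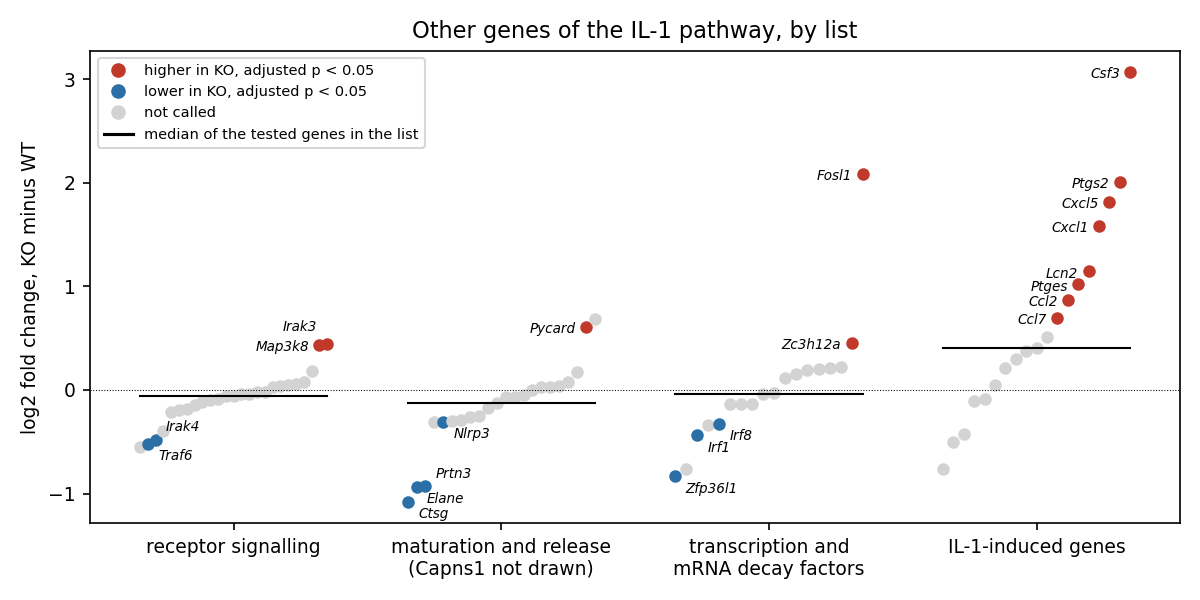
Log2 fold change, KO minus WT, of each tested gene in 4 lists of the IL-1 pathway, with the list median as a line and called genes coloured and named. In the IL-1-induced list the 8 called genes, Csf3 included, lie above 0 and 5 genes that were not called lie below it, while the medians of the other 3 lists lie between -0.12 and -0.035.

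Over the 6 libraries, several genes followed the called members closely in log2 CPM, among 12141 other protein-coding genes. The closest by Pearson's r were Eif2s2 for Il1a (0.997), Cd84 for Il1rn (0.999), Stk4 for Il18bp (0.994), Gprc5a for Il1r1 (0.996), Eif4ebp1 for Il1r2 (0.990), Tbx15 for Il1rl1 (0.998) and Gstp1 for Il1rl2 (0.997). Such values describe 6 points that share 2 groups and the same libraries. Each of these members had 49 to 201 genes above an r of 0.95, the fewest for Il1r2 and the most for Il1a.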

How the data were processed

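RNA of 6 samples of mouse BMDMs, 3 KO and 3 WT, all given LPS for 24 h, was taken from the deposited gene tables. Read trimming, alignment and counting tools in the submitters' processing notes are fastp, HISAT2 and HTSeq, with mm10 as the build; their versions and settings are not given in these sources. The authors deposited raw counts per gene and, in a second table, FPKM, which equals count over length and total within 1% for 99.99% of values resting on at least 10 counts. CPM was computed as the count over the library total. The main test was edgeR 4.0.16 in R 4.3.3 (filterByExpr with a minimum count of 10, TMM scaling, glmQLFit and glmQLFTest, group as the only term), with Benjamini-Hochberg adjustment over 12219 genes and a call at an adjusted p under 0.05. Alternatives used other scaling factors, DESeq2 1.42.0, limma 3.58.1 on counts and on log2(FPKM + 1) or log2(FPKM + 0.1), other filters on low values, a replicate block, each library left out, and the 2 libraries that stood apart left out. Single ratios were tested with exact two-sided permutation tests. The script was tested on simulated data. Fold changes from edgeR are relative to the TMM scaling.

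Members, pathway lists and marker lists were chosen with earlier results of these data known. Genes named were the 10 members, Capns1, up to 4 called genes of smallest adjusted p in each direction per list, the other IL-1 family genes, protein-coding neighbours of called members within 100 kb, and the 3 genes most alike each called member, of which the first is printed. Likeness used log2(CPM + 0.1). Of the marker lists, endothelial cells had 1 gene (Kdr, 16.7%) lower of 6 tested (34.2 to 48.7 CPM summed in KO, 38.9 to 52.9 in WT). T, NK and innate lymphoid cells had 2 (Nkg7 and Il7r, 66.7%) lower of 3 (4.73 to 6.40 and 6.77 to 10.4). B cells had 1 (33.3%) higher (Ebf1, which reached the filter CPM in KO libraries alone) and 1 (Cd22, 33.3%) lower of 3 (23.7 to 26.9 and 37.5 to 42.4). Over all genes tested 8.44% were higher and 6.21% lower. Replicates within a group differed beyond counting noise (chi-square per gene of 12.8 to 61.6), so none was a duplicate. All 10 members matched RefSeq by gene identifier, as did 16185 of 16266 genes; coordinates and promoter windows are RefSeq's for GRCm38, the assembly mm10 is built on. Shared 32-base words were counted in GENCODE transcripts.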

Additional observations from a re-analysis of the deposited data

How the results depend on the processing

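Il1a, Il1rn, Il1rl1 and Il1rl2 kept direction and call under each of the 18 alternatives that tested them (log2 fold change 0.70 to 1.28, -1.11 to -0.70, 0.45 to 2.23 and 0.45 to 1.42). The low ends for the 2 receptors are on log2(FPKM + 1), which understates low genes; Il1r1 was 0.20 there. The 6 ratios kept their direction in all 9 alternatives each. A filter of 1 CPM in 3 samples left Il1r1 untested, and one of 1 FPKM left all but Il1r2 of the receptor genes untested, with 4 members called (2 higher).

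Leaving out single libraries gave 4 to 8 members called with Il1r1 counted, against 7 (higher 3 to 5, lower 1 to 3), 1119 to 1741 genes called (1119, 1149 and 1138 without KO replicate 1, KO replicate 3 and WT replicate 1; higher 704 to 1039, lower 359 to 742) and 6 to 10 pathway genes lower. Over the same settings the log2 fold change ranged from -0.13 to 0.090 for Il1b, -0.095 to 0.093 for Il1rap, -0.59 to -0.19 for Il18, -0.79 to -0.55 for Il18bp, 1.78 to 3.17 for Il1r1 and 0.79 to 1.53 for Il1r2. The sign turned for Il1b without KO replicate 3 (0.081) and WT replicate 2 (0.090), and for Il1rap without KO replicate 1 (0.033) and WT replicate 2 (0.093). Rnf121, beside Il18bp, had 0.012 and ranged from -0.12 without KO replicate 2 to 0.16 without KO replicate 3. Fewer samples were tested there; no other cause was tested. With WT replicate 3 and KO replicate 2 both left out, 3186 genes were called (1681 higher, 1505 lower), 17 pathway genes were lower Il18 was called at -0.77 and Rnf121 was at -0.15; the cause was not tested.

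The replicate block gave 2526 genes called, 1362 higher and 1164 lower, against 1790, 1031 and 759, and changed no member's call. Deviations of same-numbered libraries from their group means correlated at -0.19, 0.40 and 0.33, and KO replicate 1 correlated best with WT replicate 3 (0.46), so the numbers were not taken as pairs. Depth limits Il1r1 most, with 5 to 47 counts a library.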
